A study of Mus musculus with 6 samples.

Results

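The genes described here are those of the major histocompatibility complex (MHC, called H2 in mice) and of the machinery that cuts and loads its peptides, measured in the hindbrain of 16-week-old mice. They were taken by name: every probe whose gene name begins with H2-, together with probes for B2m, Tap1, Tap2, Tapbp, Tapbpl, Psmb8, Psmb9, Psmb10, Psme1, Psme2, Nlrc5, Ciita, Cd74, Erap1 and Ifi30. The rule found 56 genes on 93 probes, of 37008 gene names on 56605 probes on the array. No probe carried the name Psme2. In all, 44 of the 56 genes gave at least 1 probe well above background on every array of at least 1 genotype and were tested, among 24932 tested genes. Of these 44, 43 were well above background on all 6 arrays, while H2-Ob missed that mark on 1 wild-type array and entered the test through the transgenic samples. The 44 comprise 21 class I heavy chains, 11 class I pathway genes, 8 class II chains, 3 class II pathway genes and H2-Ke6, a hydroxysteroid dehydrogenase that carries the H2 name only because of its place in the region.

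Total RNA from brainstem and cerebellum was hybridised to single-colour arrays, 1 array per sample. Wild-type mice gave 3 samples and mice labelled MSA Tg (transgenic) gave 3, and both genotypes were on a mixed background of C57BL/6, 129 and C3H. The labels name neither the transgene nor its promoter, give no sex, and do not say whether each sample was a separate animal. The p-values therefore measure only the spread between these samples. The MHC alleles that each sample inherited from the mixed background are not given either, and each probe reads a single reference sequence.

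A class I molecule is a heavy chain bound to beta-2-microglobulin (B2m) and carries a short peptide from inside the cell to the surface, where CD8 T cells read it. The immunoproteasome subunits Psmb8, Psmb9 and Psmb10 cut the peptides, the Tap1-Tap2 pump moves them into the endoplasmic reticulum, and Nlrc5 is the transactivator that drives class I genes. A class II molecule is an alpha and a beta chain, carries peptides from taken-up protein to CD4 T cells, and depends on the invariant chain Cd74 and the transactivator Ciita. In the brain, microglia, macrophages of the borders and endothelium are the main cells known to carry these genes.

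The heavy chains are near copies of one another, which limits how far a probe can be tied to 1 gene. The following 3 tested probes show this; the capitals mark the longest run of bases that all 3 share, and the sequences are those printed in the scanner files, with positions on build mm9 as the files give them.

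H2-K1: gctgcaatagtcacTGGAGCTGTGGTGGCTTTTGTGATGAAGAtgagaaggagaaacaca

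H2-L: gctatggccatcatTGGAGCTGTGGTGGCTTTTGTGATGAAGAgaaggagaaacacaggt

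H2-T23: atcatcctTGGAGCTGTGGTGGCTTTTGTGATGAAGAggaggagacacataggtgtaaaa

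The H2-K1 probe lies at chr17:34133984-34134043 on the minus strand, the H2-L probe at chr17:35403191-35403250 on the plus strand, and the H2-T23 probe at chr17:36167338-36167574 on the minus strand, which is longer than the probe's 60 bases. The shared run is 29 bases, and each probe reads through in its first frame without a stop codon. An annotation of mm9 was not used here, so the exon of each probe is not stated. Aligned without gaps, the H2-L and H2-T23 probes share 48 of 54 bases, H2-L and H2-Q8 32 of 37, and H2-K2 and H2-Q7 31 of 36. No other pair among the 28 tested heavy chain probes aligned this closely. The H2-D1 probe lies at chr17:35403886-35403945 on the plus strand, close to the H2-L probe. The names H2-L and H2-D1 may thus stand for the same locus. Probes were compared only with one another and not with transcripts, so which copy a heavy chain value below reads is uncertain.

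Promoter sequences from RefSeq (GRCm38.p6) were matched by symbol for 39 of the 56 genes. The 200 bases before the start of 5 of them are printed because these genes stand for the main groups below. Capitals mark exact matches to the search strings given next for known MHC promoter elements. The elements are the interferon-stimulated response element (its core searched as GAAANNGAA), the kappa B site (GGGANTCCC), the gamma-activated site (TTCNNNGAA), the X box (AACNGATG) and the Y box (GATTGG), each on both strands, and no capital stretch below overlaps another.

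B2m: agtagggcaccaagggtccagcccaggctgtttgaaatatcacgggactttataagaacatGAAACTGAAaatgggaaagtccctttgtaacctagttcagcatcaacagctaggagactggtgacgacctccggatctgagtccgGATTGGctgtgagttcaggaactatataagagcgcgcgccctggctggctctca

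Psmb8: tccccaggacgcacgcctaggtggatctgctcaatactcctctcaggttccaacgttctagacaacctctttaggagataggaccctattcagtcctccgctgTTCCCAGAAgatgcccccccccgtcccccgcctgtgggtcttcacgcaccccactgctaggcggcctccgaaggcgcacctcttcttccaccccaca

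H2-T23: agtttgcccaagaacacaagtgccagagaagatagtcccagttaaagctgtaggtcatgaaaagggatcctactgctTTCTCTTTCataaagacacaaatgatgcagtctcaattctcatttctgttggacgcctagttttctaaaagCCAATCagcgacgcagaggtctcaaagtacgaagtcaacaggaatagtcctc

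H2-K1: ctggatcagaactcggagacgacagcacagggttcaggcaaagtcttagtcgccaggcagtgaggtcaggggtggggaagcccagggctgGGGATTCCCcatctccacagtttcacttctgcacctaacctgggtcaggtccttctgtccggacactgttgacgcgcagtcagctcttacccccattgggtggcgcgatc

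H2-Eb1: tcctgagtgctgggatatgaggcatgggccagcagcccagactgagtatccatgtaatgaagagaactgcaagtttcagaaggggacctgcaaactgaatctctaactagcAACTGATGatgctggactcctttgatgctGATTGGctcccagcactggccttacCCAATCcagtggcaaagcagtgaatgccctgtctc

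These stretches lie at chr2:122147487-122147686 (plus strand, B2m), chr17:34197995-34198194 (plus, Psmb8), chr17:36032702-36032901 (minus, H2-T23), chr17:34000348-34000547 (minus, H2-K1) and chr17:34305667-34305866 (plus, H2-Eb1). In the window of 250 bases before to 50 after the start, the interferon element letters stood in 5 of 29 class I promoters (B2m, Erap1, Psme1, H2-T23 and H2-T22) and in 8.56% of all 32851 promoters in the table. The kappa B letters stood in 3 of the 29, H2-K1, H2-D1 and H2-Q7, against 0.767% of all promoters. The X box letters stood in 4 of 9 class II promoters (H2-DMb1, H2-DMb2, H2-Eb1 and H2-Eb2), in 1 class I promoter (H2-M10.4) and in 2.32% of all, and the Y box letters in 26 of the 39 and in 16.1% of all. The gamma-activated site letters stood in 4 of the 39 (Psmb8, H2-DMb2, H2-M11 and H2-M3), against 8.3% of all. Only these exact letters were searched. Variant forms of an element stay in lower case and are not counted, so lower case does not show that an element is absent. A match of letters is a description and not a binding site.

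The arrays were not alike. Wild-type replicate 1 was alone on slide 1, with 64.8% of probes well above background against 68.6% to 71.7% on the other 5 arrays, all of slide 2, and it correlated with them at 0.974 to 0.978. Over all tested genes it held the lowest level in 33.2% and the highest in 32.7%.

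No MHC or antigen processing gene passed the test between genotypes. On the arrays as a whole, 11 of 24932 genes had a Benjamini-Hochberg adjusted p under 0.05 in limma (0.0441% of those tested), and 0 of the 44 did. At an unadjusted p under 0.05, 8 of the 44 were higher in the transgenic samples (18.2%, against 3.15% of all tested genes) and 0 were lower (against 2.71%). In 7 of the 44, all 3 transgenic levels lay above all 3 wild-type levels (15.9%, against 7.40% of all genes), and the opposite order occurred in 0 (against 7.50%). The difference was positive in 32 of 44 genes (72.7%, against 49.9% of all genes), and its median was 0.18 on the log2 scale against -0.00049 over all genes. Levels are given below as log2 of the processed signal over the array's 75th percentile, and differences as transgenic minus wild type on that log2 scale with the SE of the limma fit, n = 3 per genotype. In bulk tissue, a difference in the number of cells that carry a gene and one in RNA per cell cannot be told apart.

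**Figure D1:**
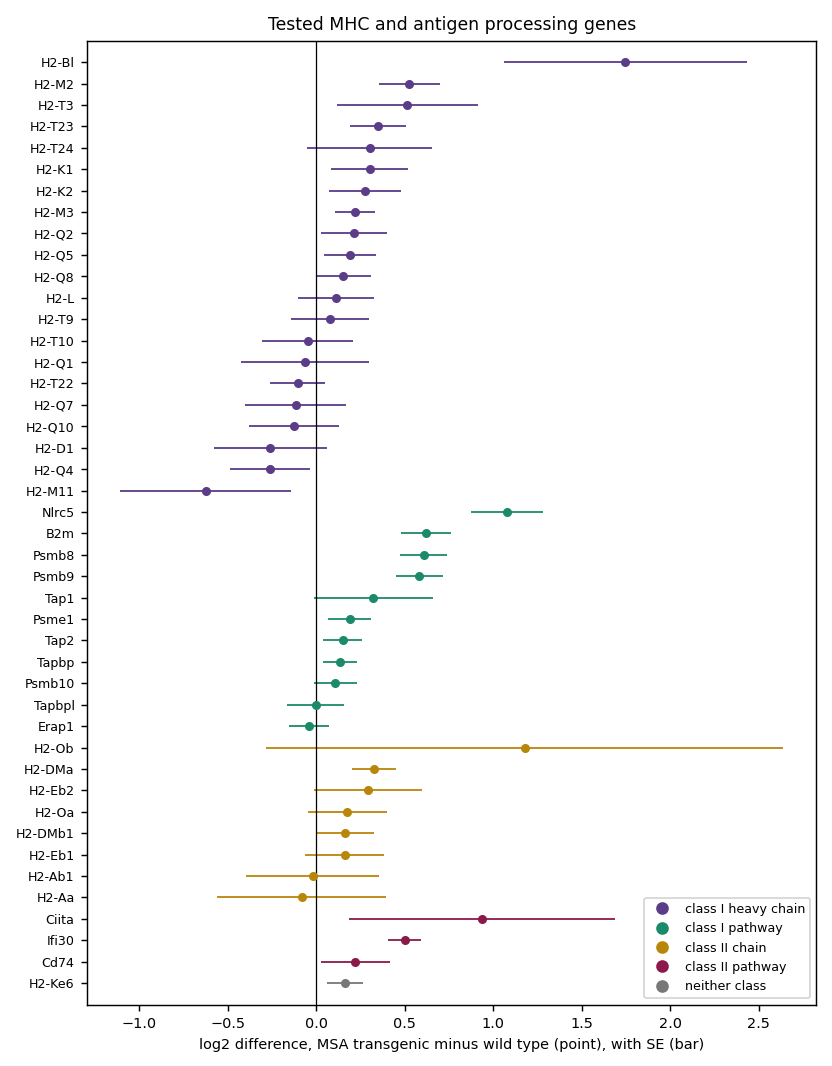
The log2 difference, transgenic minus wild type (x axis), of each of the 44 tested genes (y axis, grouped and coloured by class), with its SE as a bar and n = 3 arrays per genotype. Most points lie right of 0 (32 of 44), the widest bar is that of H2-Ob, and no gene passed the test across all genes.

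With slide as a block, which sets the 3 transgenic samples against wild-type replicates 2 and 3, 37 of 44 genes had a positive difference (47.2% of all genes did), 13 were higher and 1 lower at an unadjusted p under 0.05 (4.24% and 4.56% of all genes), and again 0 were called (0.0281% of all genes). The count of 13 against 8 rests on leaving out that 1 library, and without transgenic replicate 1 or 3 the count was 5. The 1 gene lower with slide as a block was H2-Ob, which entered the test through the transgenic samples only.

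Of the 11 class I pathway genes tested, 9 had a positive difference, 4 had no overlap between genotypes and the same 4 had an unadjusted p under 0.05: Nlrc5, Psmb8, B2m and Psmb9. Over all tested genes, 49.9% had a positive difference, 7.40% separated the genotypes with transgenic higher and 3.15% were higher at that p. The median difference of the 11 was 0.19, and 0.088 without transgenic replicate 3.

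B2m, the light chain shared by class I molecules, was read by a probe at chr2:121978401-121978460 (mm9, plus strand). Its levels were 3.58, 3.69 and 3.77 in wild-type replicates 1 to 3 and 4.23, 4.10 and 4.57 in transgenic replicates 1 to 3. The groups did not overlap, and the lowest transgenic level exceeded the highest wild-type one. The difference was 0.62 ± 0.14, or 1.54-fold, with an adjusted p of 0.446 in limma. A second, dimmer B2m probe gave 0.17 ± 0.14.

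Nlrc5, the class I transactivator (probe at chr8:97051105-97051164, plus strand), had levels of -4.83, -4.66 and -4.39 in wild type and -3.47, -3.91 and -3.26 in transgenic samples. All 3 transgenic levels were above all wild-type ones. The difference was 1.08 ± 0.20 (2.11-fold, limma adjusted p = 0.286), and it was 0.21 after normexp background correction.

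The immunoproteasome subunit Psmb8 (chr17:34337771-34337830, plus strand) had levels of -1.92, -2.12 and -2.26 in wild type and -1.46, -1.67 and -1.35 in transgenic samples. The subunit Psmb9 (chr17:34319174-34319233, minus strand) had -1.90, -1.72 and -1.81 in wild type and -1.13, -1.48 and -1.07 in transgenic samples. Both separated the genotypes without overlap, and in both, transgenic replicate 2 was the lowest transgenic sample. The differences were 0.61 ± 0.13 for Psmb8 and 0.58 ± 0.14 for Psmb9, with limma adjusted p of 0.403 and 0.462. Psmb10, the third inducible subunit, differed by 0.11 ± 0.12, and its levels overlapped.

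The peptide pump gave smaller values. Tap1 was -2.33, -3.39 and -3.63 in wild type and -2.73, -2.81 and -2.84 in transgenic samples. Wild-type replicate 1 was the highest of the 6 and the other wild-type samples the lowest, so the difference of 0.32 ± 0.34 became 0.72 with slide as a block (limma adjusted p = 0.175, and 0.175 to 0.952 over all settings tried). Tap2 differed by 0.15 ± 0.11 and the loading factor tapasin (Tapbp) by 0.13 ± 0.10, each with overlap. Psme1, a subunit of the proteasome activator, differed by 0.19 ± 0.12. The tapasin relative Tapbpl and the trimming peptidase Erap1 had the values nearest 0, at -0.0041 ± 0.16 and -0.043 ± 0.11.

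**Figure D2:**
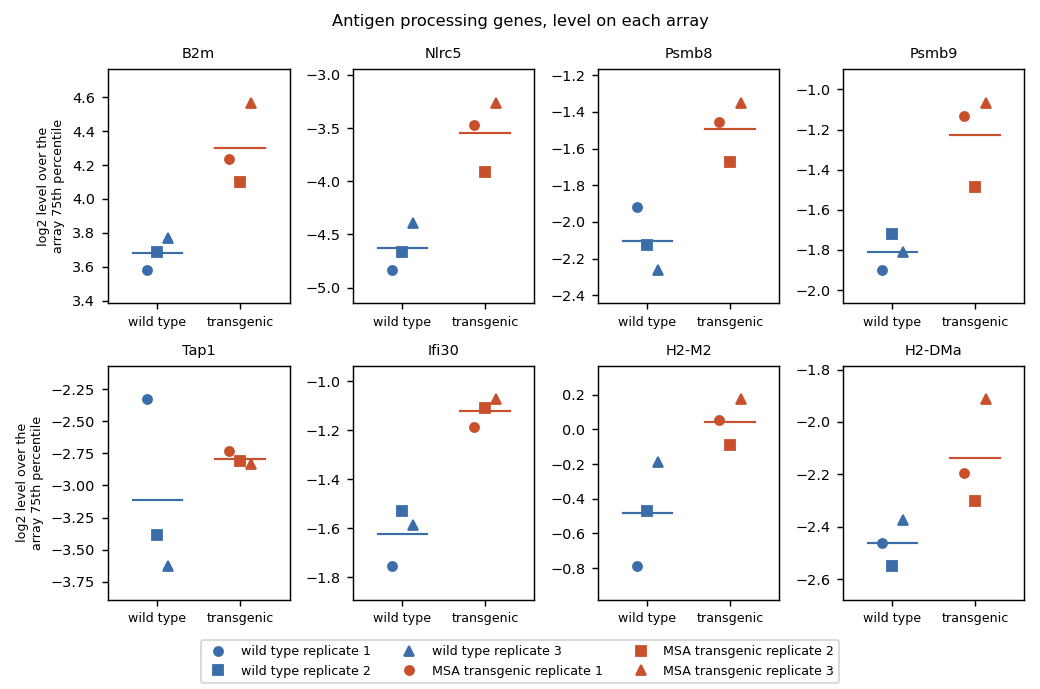
Level on each array (y axis, log2 over the array's 75th percentile, a scale of its own for each gene) of 8 genes in wild-type (left) and transgenic (right) samples, with marker shape giving the replicate and a line the mean of 3. For B2m, Nlrc5, Psmb8, Psmb9, Ifi30, H2-M2 and H2-DMa all transgenic points lie above all wild-type points, and for Tap1 wild-type replicate 1 lies above the rest.

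Among the class I heavy chains, 13 of 21 had a positive difference (61.9%, against 49.9% of all genes). At an unadjusted p under 0.05, 2 were higher (9.52%, against 3.15%). The genotypes were separated by 1 (4.76%, against 7.40% of all genes). Counted by probe in place of 1 probe per gene, 4 of 28 heavy chain probes did (14.3%, against 6.68% of all tested probes). H2-M2, a nonclassical heavy chain, was the gene that separated them. Its levels were -0.79, -0.47 and -0.19 in wild type and 0.053, -0.091 and 0.17 in transgenic samples, a difference of 0.53 ± 0.17 (limma adjusted p = 0.762). A second, far dimmer H2-M2 probe was well above background on 1 wild-type and 2 transgenic arrays and was not tested. Its levels overlapped, at -5.27, -5.36 and -5.94 in wild type and -5.70, -5.17 and -6.34 in transgenic samples.

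The classical heavy chains overlapped between genotypes on the probe used for each gene. H2-K1 had levels of 3.16, 2.40 and 2.83 in wild type and 3.06, 2.92 and 3.31 in transgenic samples. Wild-type replicate 1 lay among the transgenic samples, and the difference was 0.30 ± 0.22. It was 0.10 without wild-type replicate 2 and 0.48 with slide as a block. The H2-K1 probe printed above gave 1.38, 1.04 and 1.35 in wild type and 1.68, 1.40 and 1.76 in transgenic samples, with no overlap and a difference of 0.36 ± 0.15. H2-D1 had 2.81, 1.63 and 2.53 in wild type and 2.11, 1.86 and 2.22 in transgenic samples. The 3 transgenic levels fell inside the wild-type range, and the difference was -0.26 ± 0.32. Without wild-type replicate 2 it was -0.61, and without wild-type replicate 1 it was -0.014.

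H2-T23, which encodes the nonclassical molecule Qa-1, was 2.12, 1.70 and 1.96 in wild type and 2.36, 2.03 and 2.44 in transgenic samples. Only transgenic replicate 2 fell among the wild-type values, and the difference was 0.35 ± 0.16 (limma adjusted p = 0.817). A second, dimmer H2-T23 probe separated the genotypes and gave 0.48 ± 0.21. H2-M3, a nonclassical chain that presents formylated peptides, differed by 0.22 ± 0.11. Of the heavy chains named after their values were seen, H2-L, whose probe lies close to that of H2-D1, differed by 0.11 ± 0.22. In the others so named, the difference was -0.12 ± 0.28 for H2-Q7, -0.26 ± 0.23 for H2-Q4 and -0.62 ± 0.48 for H2-M11, the lowest of the 44.

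H2-Bl carried the largest difference of the 44, and its 2 tested probes did not behave alike. The probe used for the gene (chr17:36217134-36217193, minus strand) gave -2.58, -0.18 and -2.71 in wild type and 0.015, -0.059 and -0.19 in transgenic samples. Wild-type replicate 2 stood with the transgenic samples and the other wild-type samples lay far below. The difference was 1.75 ± 0.69 (limma adjusted p = 0.817). Without wild-type replicate 2 it was 2.57 with an adjusted p of 0.0262, the only setting tried in which a member was called, over a range of 0.0262 to 0.952. The other probe gave -1.99, -2.32 and -2.0 in wild type and -1.48, -1.84 and -1.59 in transgenic samples, without overlap, a difference of 0.46 ± 0.15. The first probe shares 49 of 58 aligned bases with a probe for H2-Q10 that was not well above background on enough arrays to be tested.

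The class II chains showed no difference that separated the genotypes except in H2-DMa. Of the 8 tested, 6 had a positive difference (75%, against 49.9% of all genes), with a median of 0.17. Among the 7 well above background on all 6 arrays, which leave out H2-Ob, 5 did. The 1 that separated was 12.5% of the class, against 7.40% of all genes. H2-DMa, a chain of the peptide-exchange factor DM, was -2.46, -2.55 and -2.37 in wild type and -2.20, -2.30 and -1.91 in transgenic samples. The lowest transgenic level lay just above the highest wild-type one, and the difference was 0.33 ± 0.13 (limma adjusted p = 0.817). Its partner H2-DMb1 differed by 0.16 ± 0.17, with overlap.

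The classical alpha chain H2-Aa was -3.21, -4.97 and -3.64 in wild type and -3.93, -4.44 and -3.69 in transgenic samples, a difference of -0.082 ± 0.48. The classical beta chain H2-Ab1 was 0.28, -1.15 and -0.15 in wild type and -0.26, -0.65 and -0.18 in transgenic samples, a difference of -0.021 ± 0.38. In both genes the transgenic samples lay within the wild-type range, between wild-type replicate 1, the highest, and wild-type replicate 2, the lowest. With slide as a block both values turned positive, to 0.28 and 0.29. H2-Eb1 was -0.17, -0.69 and -0.35 in wild type and -0.20, -0.62 and 0.097 in transgenic samples, a difference of 0.16 ± 0.22. The alpha chain H2-Ea, whose probe is named H2-Ea-ps on the array, was not well above background on any array and was not tested.

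The chaperone Cd74, the invariant chain, was -0.38, -0.99 and -0.93 in wild type and -0.44, -0.75 and -0.45 in transgenic samples. The genotypes overlapped through wild-type replicate 1, and the difference was 0.22 ± 0.20, or 0.42 with slide as a block. Ciita, the class II transactivator, was -4.02, -1.46 and -1.20 in wild type and -1.07, -1.46 and -1.34 in transgenic samples. Wild-type replicate 1 alone was low, so the difference of 0.94 ± 0.75 became 0.041 with slide as a block. A second Ciita probe gave -0.12 ± 0.24. Ifi30, the lysosomal thiol reductase GILT, had the smallest p of all 44 genes. Its levels were -1.75, -1.53 and -1.59 in wild type and -1.19, -1.11 and -1.07 in transgenic samples, with no overlap and a difference of 0.50 ± 0.094 (1.41-fold, limma adjusted p = 0.286).

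The beta chain H2-Ob, chosen after its values were seen, had the same shape as Ciita. Wild-type replicate 1 was at -5.63 and the other 2 wild-type samples were at -0.46 and -0.27, while the transgenic samples were at -0.99, -1.23 and -0.61. The difference of 1.18 ± 1.46 became -0.58 with slide as a block. H2-Ob entered the test through the transgenic samples only, so its differences are given as values only.

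**Figure D3:**
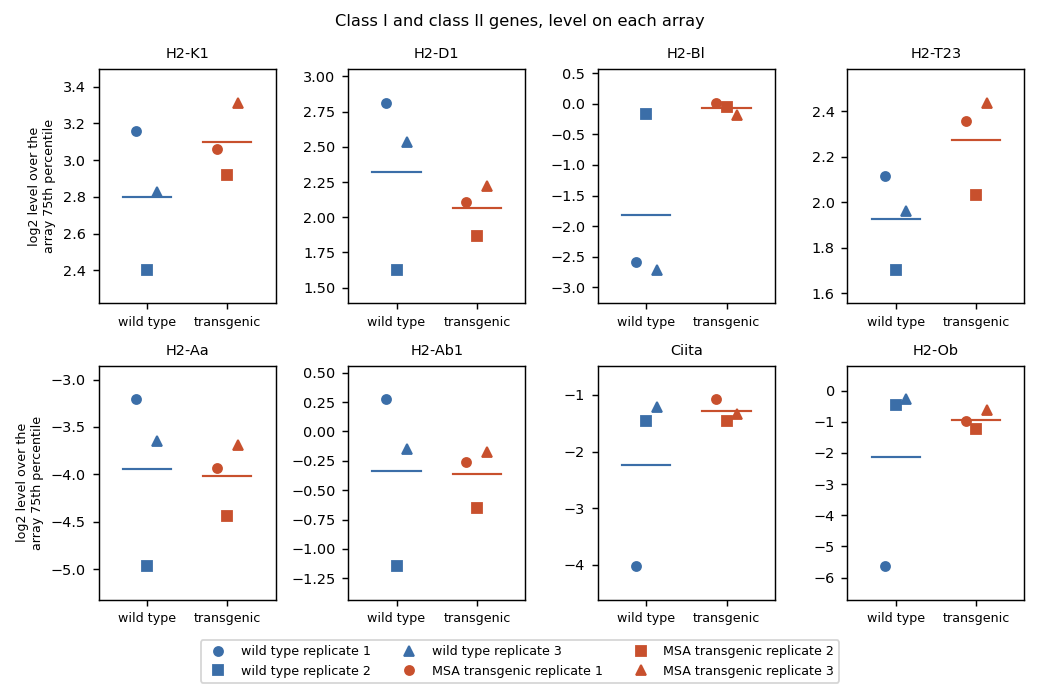
Level on each array (y axis, log2 over the array's 75th percentile, a scale of its own for each gene) of 4 class I heavy chains (top) and 4 class II genes (bottom) in wild-type (left) and transgenic (right) samples, with marker shape giving the replicate and a line the mean of 3. Wild-type replicate 2 is lowest for H2-K1, H2-D1, H2-T23, H2-Aa and H2-Ab1 and stands with the transgenic samples for H2-Bl, and wild-type replicate 1 is low for Ciita and H2-Ob.

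The spread between wild-type samples differed by class. The median SD of the 3 wild-type levels was 0.38 for heavy chains, 0.36 for class II chains and 0.12 for class I pathway genes, against 0.18 over all tested genes. Among transgenic samples the medians were 0.20, 0.31, 0.16 and 0.11. In single genes, the wild-type SD exceeded that of 99.96% of all genes for H2-Ob, 98.9% for Ciita, 98.5% for H2-Bl, 95.1% for H2-Aa and 89.2% for H2-D1. For B2m and Psmb9 it exceeded 22.2% and 20.4%.

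**Figure D4:**
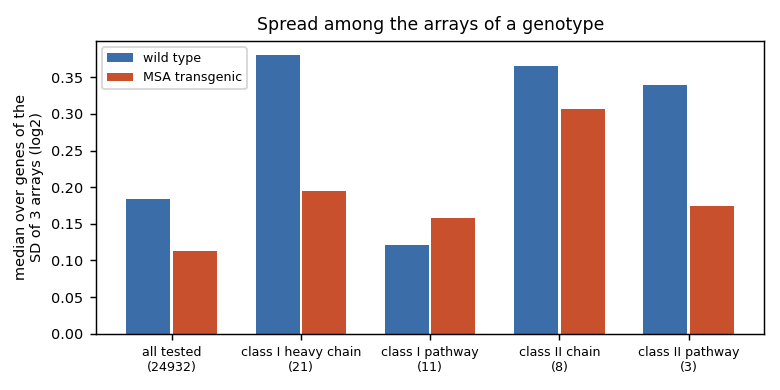
Median over genes of the SD of the 3 log2 levels of a genotype (y axis) for all tested genes and for each class (x axis, with the number of genes), in wild-type and transgenic samples. The bars of heavy chains (0.38) and class II chains (0.36) in wild type are above that of all genes (0.18), and that of class I pathway genes is below it (0.12).

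The same samples tended to be at the ends of the range. Wild-type replicate 2 held the lowest level in 21 of 44 genes, against 11.9% of all tested genes, including 12 of 21 heavy chains and 6 of 8 class II chains. Transgenic replicate 3 held the highest level in 20 of 44, against 18.9% of all genes, including 8 of 11 class I pathway genes. Wild-type replicate 1 held the highest level in 9 of 21 heavy chains (42.9%, against 32.7% of all genes). Genes of the class share sequence and lie close together, so these counts describe the samples and are not independent of one another.

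**Figure D5:**
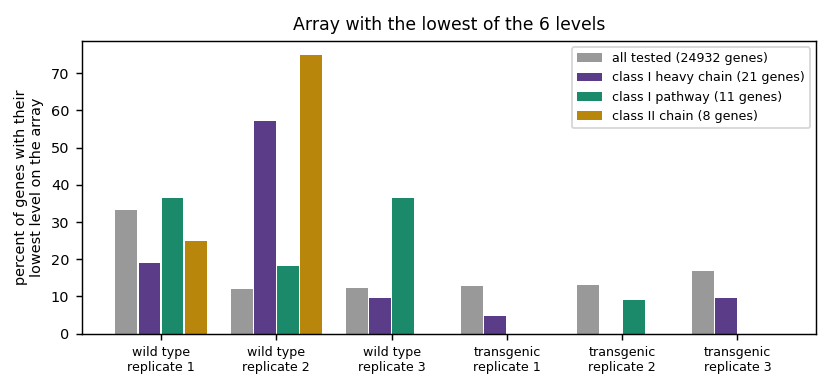
Percent of genes (y axis) whose lowest of 6 levels was on a given array (x axis) for all tested genes and for 3 classes. Wild-type replicate 2 held the lowest level in 57.1% of heavy chains and 75% of class II chains but in 11.9% of all genes.

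Of the 56 genes, 12 had no probe well above background on enough arrays. They were H2-Ea, the class II chain gene H2-DMb2, the heavy chain genes H2-M1, H2-M5, H2-M9 and H2-T18, and all 6 members of the H2-M10 family. Of 11 genes with several tested probes, 4 (Ciita, H2-Ab1, H2-Q7 and H2-Q10) had probes with opposite signs. For H2-Ab1 the 4 probes gave -0.021, 0.0032, 0.075 and 0.22.

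The genes around the pathway were read from lists, beside which stand the 3.15% of all tested genes higher at an unadjusted p under 0.05, the 2.71% lower and the 7.40% that separated the genotypes with transgenic higher. The endolysosomal genes of class II processing had 9 of 10 positive differences, with 4 higher and 1 lower at an unadjusted p under 0.05 and 0 called. Slc11a1, a phagosomal metal transporter, was -3.10, -2.91 and -2.87 in wild type and -1.98, -1.82 and -1.85 in transgenic samples, a difference of 1.08 ± 0.10 (limma adjusted p = 0.0567). Cathepsin S (Ctss), which trims the invariant chain, differed by 0.70 ± 0.13 and cathepsin H (Ctsh) by 0.46 ± 0.099, both without overlap. Marchf1, a ubiquitin ligase that removes class II from the surface, differed by -0.43 ± 0.12, with all transgenic levels below all wild-type ones.

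The co-stimulation and checkpoint ligands had 4 of 7 tested genes higher at an unadjusted p under 0.05: Cd48 by 1.0 ± 0.27, Cd86 by 0.67 ± 0.13, Icam1 by 0.46 ± 0.13 and Cd274 by 0.43 ± 0.12. The peptide loading chaperones had 1 of 8 positive differences and a median of -0.091, and a list of constitutive proteasome subunits with the activators Psme3 and Psme4 and the assembly factor Pomp 2 of 9 and a median of -0.055. The positive ones were Psme3, at 0.44 and without overlap, and the subunit Psmb5, at 0.043. The interferon signalling genes had 6 of 14 positive, a median of -0.0084 and 1 gene, Irf8, higher at an unadjusted p under 0.05 (0.70 ± 0.15). The promoter factors listed were those of the X and Y boxes and their partners, together with Nfkb1 and Rela. Of these, 4 of 11 were positive, with Rfx5 at 0.32 ± 0.12 and the coactivator Crebbp at -0.23 ± 0.093. In none of these lists was a gene called.

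Markers of cell types that could carry these genes were read beside them. Over all tested genes, 49.9% had a positive difference and 3.15% were higher at an unadjusted p under 0.05. Of 10 microglia markers, 9 had a positive difference and 4 had an unadjusted p under 0.05, all 4 without overlap (7.40% of all tested genes). Among the 4 were Csf1r at 0.49 ± 0.078, Aif1 at 0.59 ± 0.10 and Tmem119 at 0.29 ± 0.086. P2ry12 was at 0.046 ± 0.15, and Sall1, the 1 negative, at -0.27 ± 0.14. The summed linear level of the 10 microglia markers was 81.3 to 208 in wild type and 181 to 201 in transgenic samples. Most of that sum was Siglech, which is also in the dendritic cell list and had a level of 5.85 in wild-type replicate 1 and 7.21 to 7.53 in the other samples. All 6 border macrophage markers had a positive difference, with 3 at an unadjusted p under 0.05, and the sum was 1.47 to 1.66 in wild type and 1.76 to 2.07 in transgenic samples. Of 9 T cell markers on the array, 2 (Cd3g and Cd8a) were well above background on no array, and 6 of the 7 tested had a positive difference. Of these, 1 separated the genotypes, Cd2. It was well above background on 5 arrays, so it entered the test through 1 genotype and its separation is given as a value only. The T cell sum, most of it from Cd4 and Cd3e, was 1.63 to 3.47 in wild type and 3.49 to 4.76 in transgenic samples. Both genes were low in wild-type replicate 1. Cd4 was -0.10 there and 0.95 to 1.72 in the other samples, and Cd3e -1.16 and -0.17 to 0.026. The part of these markers in the class I pathway differences was not tested.

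Of the other marker lists, monocyte and neutrophil genes had 5 of 7 positive (3 higher and 1 lower at an unadjusted p under 0.05, with S100a8 at 0.98 ± 0.32), NK cell genes 4 of 4, B and plasma cell genes 3 of 5, dendritic cell genes 1 of 3, endothelium genes 3 of 8 and astrocyte genes 3 of 6, with Gfap at 0.59 ± 0.11. In each NK cell gene tested, wild-type replicate 1 held the lowest level. For Klrb1c it was 4.23, against 5.67 to 5.81 in the other samples. Oligodendrocyte genes had 1 of 6 positive and 3 lower at an unadjusted p under 0.05. Over all tested genes, 49.9% had a positive difference, and 3.15% were higher and 2.71% lower at that p. The tissue check found all 8 hindbrain neuron markers tested, with 1 of 8 positive, while 5 of 6 forebrain neuron markers were tested and 3 of those were positive.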

How the data were processed

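Total RNA of 3 wild-type and 3 MSA transgenic samples was labelled with Cy3 and hybridised to Agilent arrays, per the labels' protocols. Per the file headers, the deposited intensity values were read with Feature Extraction 10.7.1.1, which subtracts background, and annotated on mm9, while the submitters' processing notes give version 9.5.1.1. The authors' value table, also intensity on a linear scale, was used only as an alternative. The deposited flags of other kinds marked spots well above background and outliers.

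Here log2 of the processed signal, averaged over spots of a probe, was taken relative to log2 of the array's 75th percentile, with control and outlier spots left out. Genes were named through a RefSeq table (GRCm38.p6): 32994 probes by accession, 10224 by symbol and 520 by synonym, and 12867 kept the file's name. A probe entered the test where every array of 1 or both genotypes had it well above background, and a gene took its brightest tested probe by mean level. The test was limma 3.58.1 (R 4.3.3; lmFit, then eBayes), with Benjamini-Hochberg adjustment over all tested genes and calls at an adjusted p under 0.05. The steps were tested on simulated data. The number of arrays limits the precision.

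The members and the gene lists were chosen with earlier results of these data known. Genes named were H2-K1, H2-D1, B2m, Tap1, Psmb8, Psmb9, Nlrc5, H2-Aa, H2-Ab1, H2-Eb1, H2-Ea, Cd74 and Ciita whatever their values, the 12 members with the smallest p, and list genes with small p. Others were chosen after their values were seen. Some list genes with small p are counted but not reported by name here. Alternatives covered scaling, background correction, the filter on dim probes, the value table, slide and title number as blocks, the probe per gene, gene names, the variance model, the threshold and leaving out each sample.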

Additional observations from a re-analysis of the deposited data

How the results depend on the processing

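The count of member genes called stayed at 0 in every setting but the one without wild-type replicate 2, where H2-Bl was called (leave-one-out range 0 to 1). The count of genes called over the whole array was 11, and it was 29 after normexp, 6 with no filter on dim probes, 23 for probes well above background on all 6 arrays, 7 with slide as a block, 24 for the mean of a gene's probes, 27 with an intensity trend, 95 with array weights, 38 at an adjusted p under 0.1 and 0 to 6 without 1 sample. Members higher at an unadjusted p under 0.05 numbered 8, or 13 with slide as a block, 15 with array weights and 5 to 13 without 1 sample. Members lower numbered 0, or 1 with no filter, 1 with slide as a block and 0 to 3 without 1 sample. The heavy chain median of 0.15 became -0.063 with no filter and 0.015 after normexp. It was 0.033 without wild-type replicate 2 and 0.048 without transgenic replicate 3. The class II chain median was 0.018 after normexp. H2-Aa turned to 0.28 with slide as a block and 0.24 with array weights (-0.60 to 0.28 without 1 sample), and H2-Ab1 to 0.29, to 0.26 with array weights and to 0.070 for the mean of its probes (-0.42 to 0.29 without 1 sample). H2-Eb1 was -0.0074 without transgenic replicate 3 (range -0.0074 to 0.35). The cause was not tested. Of the named genes' other values, 367 kept direction and side of the threshold. The class I pathway median was 0.088 to 0.26 without 1 sample. Blocked on the leading digit of each title, 6 members were higher at an unadjusted p under 0.05 and 0 were called. No paired analysis was possible because the labels number no replicates and do not say whether samples with neighbouring title numbers are related.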

Other observations

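Genes next to the classical set were also read. Lilrb4a, an inhibitory receptor of myeloid cells in the list of receptors for class I, was at -4.29, -3.81 and -4.21 in wild type and at -2.29, -2.08 and -1.69 in transgenic samples. Every transgenic level lay above every wild-type one, and the difference was 2.09 ± 0.20 (limma adjusted p = 0.0618, not called). Of the 10 receptors in that list, 3 were tested and 5 were well above background on no array.

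Of 8 tested class I-like genes outside the H2 names, 6 had a positive difference and 2 had an unadjusted p under 0.05: Mill2, by 0.82 ± 0.21, and the iron regulator Hfe, by 0.43 ± 0.16. Mill2 was well above background on only 3 arrays, so it entered the test through 1 genotype and its difference is given as a value only. Of 29 tested neighbours in the MHC region that are no antigen-presenting genes, 24 had a positive difference, but their median was 0.063. Over all tested genes, 49.9% had a positive difference and 3.15% were higher at an unadjusted p under 0.05. The 5 with an unadjusted p under 0.05 were Lta, at 0.84 ± 0.23, and the complement genes Cfb, at 0.81 ± 0.27, C4b, at 0.40 ± 0.13, C4a, at 0.39 ± 0.11, and C2, at 0.28 ± 0.11. Lta was well above background on 3 arrays and Cfb on 5, so both entered the test through 1 genotype and their differences are likewise values only. C4a and C4b are near copies, so their values are uncertain as to which gene they read.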
